A study of Mus musculus with 56 samples.

Results

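Non-collagen matrix glycoproteins and proteoglycans are the proteins that surround and organise the collagen of a tissue. The 39 genes described here were chosen by name, from a fixed list of gene symbols, and all 39 were found among the 21935 genes of the count table. The list was chosen with earlier results of these data known. Shares of all genes are therefore given beside its counts for scale and not as a test of the list. They fall into 6 role classes. The first holds 7 genes for small leucine-rich proteoglycans and versican, the second 11 genes for elastic fibres and microfibrils, the third 4 genes for latent TGF-beta binding proteins, the fourth 7 matricellular genes, the fifth 5 basement membrane genes and the last 5 other matrix genes. Of the 39, 37 had at least 5 reads in at least 3 mice and were tested. The 2 others, Mfap5 (a microfibril protein) and Cthrc1 (a secreted collagen triple helix repeat protein), held 11 and 3 reads over all mice and were not tested.

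As background, small leucine-rich proteoglycans such as decorin and lumican bind collagen fibrils and shape their diameter and spacing, while elastin is laid down on a scaffold of fibrillin microfibrils with the help of fibulins. Latent TGF-beta binding proteins hold the inactive form of the growth factor in the matrix, matricellular proteins such as periostin and tenascin signal to cells during repair, and laminins and nidogens build the basement membrane. In liver injury, stellate cells and portal fibroblasts are the main known makers of this matrix, which is sparse along healthy sinusoids and accumulates in scars.

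RNA was sequenced from terminal livers of 56 male C57BL/6J mice, 8 in each of 7 groups, which were 5 to 6 weeks old on arrival and were then kept on their diet for 36 weeks before 8 weeks of daily subcutaneous dosing. Chow-fed mice given vehicle were the healthy controls. The other 6 groups ate the AMLN diet, rich in fat, fructose and cholesterol, which gives obesity with metabolic dysfunction-associated steatohepatitis (DIO-MASH), and entered the study only after a liver biopsy had shown steatosis and fibrosis. They received vehicle, low-dose zalfermin (0.05 mg/kg), low-dose semaglutide (3 µg/kg), high-dose zalfermin (0.2 mg/kg), high-dose semaglutide (120 µg/kg), or zalfermin together with semaglutide. Zalfermin is an engineered, slowly cleared form of FGF21, a liver-derived metabolic hormone, whereas semaglutide mimics the gut hormone GLP-1. The sources differ on the combination: the methods of the study give it as 0.05 mg/kg zalfermin with 3 µg/kg semaglutide, the text of the deposited series gives high doses of each drug, and the sample labels give no dose. It is called the combination here, and comparisons with the single drugs carry that doubt.

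The livers held between 5228187 and 20885786 counted reads each (median 12206788), and values are given as CPM, the reads of a gene scaled to a common library size. Hepatocyte genes were abundant in every library, with albumin between 43212 and 186125 CPM. In bulk tissue, a smaller number of matrix-producing cells and less RNA per cell cannot be told apart. Chow mouse 8 stood apart from the other 7 chow mice: its 5 vascular smooth muscle markers summed to 119 CPM against 9.99 to 26.7 CPM, and its 5 cholangiocyte markers to 271 CPM against 7.34 to 15.1 CPM. The study left out 1 mouse given low-dose semaglutide that the labels do not identify, so all 56 mice were used. For the genes of the list, the results that rest on single mice are also given without them.

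To compare genes with each other, CPM were divided by the length of the merged exons of each gene. On that scale of level per kilobase, the highest medians in vehicle-dosed DIO-MASH mice were those of Bgn (biglycan) at 67.2, Sparc (osteonectin) at 65.5, Dcn (decorin) at 56.4 and Ecm1 at 53.6 CPM per kilobase. Ecm1, which encodes extracellular matrix protein 1, headed the order in chow-fed mice at 41.5 CPM per kilobase, followed by Dcn at 17.1 and Bgn at 14.5. A middle group held Dpt (dermatopontin, a small collagen-binding protein) at 18.7, Lum (lumican) at 18, Ltbp4 at 17.6 and Emilin1 at 17.5 CPM per kilobase in the vehicle-dosed mice. Vcan (versican, a large chondroitin sulfate proteoglycan) at 0.158 and Aspn (asporin) at 0.0524 were the lowest of the 37. Summed over the 37 genes, the CPM ran from 439 to 809 (median 546) in chow-fed mice and from 1459 to 2405 (median 1932) in vehicle-dosed DIO-MASH mice. The ranges of these sums do not overlap. The combination group ran from 780 to 1581 CPM (median 1100), so its median lay between them and its range met both.

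Promoter sequence was at hand for 27 of the 39 genes in the RefSeq table for build GRCm38.p6, as windows of 250 bases before and 50 bases after a transcript start. No window was at hand for Sparcl1, Lamc1, Eln, Cthrc1, Matn2, Thbs1, Mfap5, Nid2, Lum, Mgp, Dcn and Mfap4. Shown are the windows of the 4 genes with the deepest falls under the combination, among those with a window and a mean of at least 1 CPM. A link between the letters of these windows and the falls was not tested. Each reads 5′ to 3′ on the strand of the gene, in lower case, with capitals marking the TATA box letters TATAAA and the GC box letters GGGCGG on either strand.
Tnc (tenascin C), chr4:64046966-64047265, minus strand: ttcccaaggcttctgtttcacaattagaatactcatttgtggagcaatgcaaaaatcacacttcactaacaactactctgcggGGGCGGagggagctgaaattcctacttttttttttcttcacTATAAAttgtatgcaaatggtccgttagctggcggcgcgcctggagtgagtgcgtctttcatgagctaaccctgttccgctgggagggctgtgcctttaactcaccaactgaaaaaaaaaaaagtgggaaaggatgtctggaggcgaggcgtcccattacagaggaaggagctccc
Postn (periostin), chr3:54360857-54361156, plus strand: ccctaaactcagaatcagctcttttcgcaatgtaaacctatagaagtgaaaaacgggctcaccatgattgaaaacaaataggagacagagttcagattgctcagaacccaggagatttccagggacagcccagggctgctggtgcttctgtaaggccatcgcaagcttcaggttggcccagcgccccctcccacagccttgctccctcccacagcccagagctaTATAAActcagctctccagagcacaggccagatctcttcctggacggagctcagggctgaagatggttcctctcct
Vcan (versican), chr13:89742463-89742762, minus strand: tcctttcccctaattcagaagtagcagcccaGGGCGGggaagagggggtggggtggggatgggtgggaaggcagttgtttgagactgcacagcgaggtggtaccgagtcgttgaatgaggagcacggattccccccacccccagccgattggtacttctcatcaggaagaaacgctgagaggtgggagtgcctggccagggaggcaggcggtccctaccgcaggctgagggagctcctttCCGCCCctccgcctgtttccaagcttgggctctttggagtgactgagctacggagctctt
Fbn1 (fibrillin), chr2:125506389-125506688, minus strand: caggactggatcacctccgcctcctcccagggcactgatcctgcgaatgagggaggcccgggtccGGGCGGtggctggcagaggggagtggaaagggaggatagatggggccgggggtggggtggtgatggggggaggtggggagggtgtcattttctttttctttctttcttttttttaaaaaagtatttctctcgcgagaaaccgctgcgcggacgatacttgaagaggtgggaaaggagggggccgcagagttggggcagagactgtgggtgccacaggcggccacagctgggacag
Postn held 1 TATAAA, 26 bases before its start, and no GC box. In Tnc, 1 TATAAA began 126 bases before the start and 1 GC box was present as well. The Vcan window held 2 GC boxes and that of Fbn1 held 1, and neither held TATAAA. The Fbn1 start of RefSeq lies 1555 bases from the outermost start of the gene in GENCODE, and the other 3 starts lie within 3 bases of it. Tnc and Postn each had 2 windows, and the 1 nearest the GENCODE start is shown. Over all windows of the 27 genes, TATAAA was present in 8 of 37 (21.6%) against 13.6% of all 32851 windows searched, and GGGCGG in 22 of 37 (59.5%) against 35.7%, both strands searched. The search left out 1 chromosome, which holds none of the member genes. The CCAAT box letters CCAAT were in 32.4% of member windows against 37.4% of all, the AP-1 letters TGACTCA in 5.41% against 5.20% and the TEAD letters GGAATG in 8.11% against 14.7%. Letters that match a motif are a description of the sequence and not a measured binding site.

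The comparison of vehicle-dosed DIO-MASH with chow-fed mice asks what the disease model does to these genes. Of the 37 tested, 33 were higher in DIO-MASH and none was lower (edgeR quasi-likelihood test, Benjamini-Hochberg adjusted p under 0.05), where 28.9% of all 14105 genes tested were higher. The median log2 fold change of the 37 was 2.09, beside 0.01 for all genes. In 28 of the 33 every DIO-MASH mouse was above every chow mouse, which held for 9.49% of all genes. All 33 calls were kept when any 1 mouse of the groups was left out. The 4 genes not called were Aspn, Fbln1, Nid2 and Ecm1.

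Among the small leucine-rich proteoglycans and versican, 6 of 7 in the class rose. Lum, which spaces collagen fibrils, measured 3.55 to 11.1 CPM (median 6.14) in chow-fed mice and 37.7 to 101 CPM (median 44.1) in DIO-MASH, a log2 fold change of 3.10 ± 0.41 (SE; adjusted p = 7.7e-09 by edgeR). The lowest DIO-MASH mouse lay well above the highest chow mouse. Dcn went from 65.8 to 139 CPM (median 100.1) to 288 to 502 CPM (median 329), a change of 1.80 ± 0.21, and Bgn from 72.8 to 147 CPM (median 88.5) to 264 to 572 CPM (median 410), a change of 2.02 ± 0.24. Neither pair of ranges overlapped. Fmod (fibromodulin) rose by 1.64 ± 0.39 and Ogn (osteoglycin) by 0.85 ± 0.29, both with ranges that met. Vcan was at or near 0 in chow-fed mice, with no read in 4 of the 8 and at most 0.903 CPM, against 1.07 to 5.04 CPM in DIO-MASH (log2 fold change 3.59 ± 0.55, adjusted p = 2.3e-07 by edgeR). Aspn held 108 reads over all 56 mice and gave -0.87 ± 0.65, which did not pass the test.

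In the elastic fibre and microfibril class, 9 of 10 tested genes rose. Fbn1, the main microfibril protein, ran from 1.87 to 4.92 CPM (median 3.41) in chow-fed mice and from 16.9 to 40.2 CPM (median 30.3) in DIO-MASH, a log2 fold change of 3.02 ± 0.29 (adjusted p = 3.5e-12 by edgeR). Eln, the elastin gene, ran from 0.728 to 2.58 CPM (median 0.985) and from 8.79 to 22.8 CPM (median 14.3), a change of 3.53 ± 0.41. In each, all DIO-MASH mice lay above all chow mice. Mfap2, a microfibril-associated glycoprotein, had the largest log2 fold change of the 37 at 3.98 ± 0.63, from a level of 0 to 0.492 CPM in chow-fed mice to 0.505 to 3.29 CPM, so its size rests on few reads in the controls. Mfap4, another microfibril-associated protein, rose by 2.46 ± 0.40 and Emilin1, an elastin microfibril interface protein, by 2.12 ± 0.22. The fibulin family spread more widely: Efemp2 (2.09 ± 0.24), Fbln2 (1.78 ± 0.25), Efemp1 (1.72 ± 0.20) and Fbln5 (1.58 ± 0.25) rose, and Fbln1 did not pass (0.61 ± 0.51, adjusted p = 0.31 by edgeR).

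The Fbln1 result turned on 1 mouse. It stood at 32.9 CPM in chow mouse 8 and at 0.541 to 2.46 CPM in the other 7 chow mice, against 2.71 to 13.4 CPM in DIO-MASH. Without chow mouse 8 the groups did not overlap and the log2 fold change was 2.48 (adjusted p = 4e-06 by edgeR), so that 34 of the 37 were called. The same mouse held the highest chow values of Aspn, Sparcl1, Tnc, Mfap2 and Eln. The sign of the Aspn difference turned without it, from -0.87 to 0.27, not called either way, and the other differences became larger, to 2.51 for Sparcl1, 3.31 for Tnc, 4.75 for Mfap2 and 3.72 for Eln. Its smooth muscle and cholangiocyte markers were high beside these genes, and their part in the result was not tested.

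**Figure D1:**
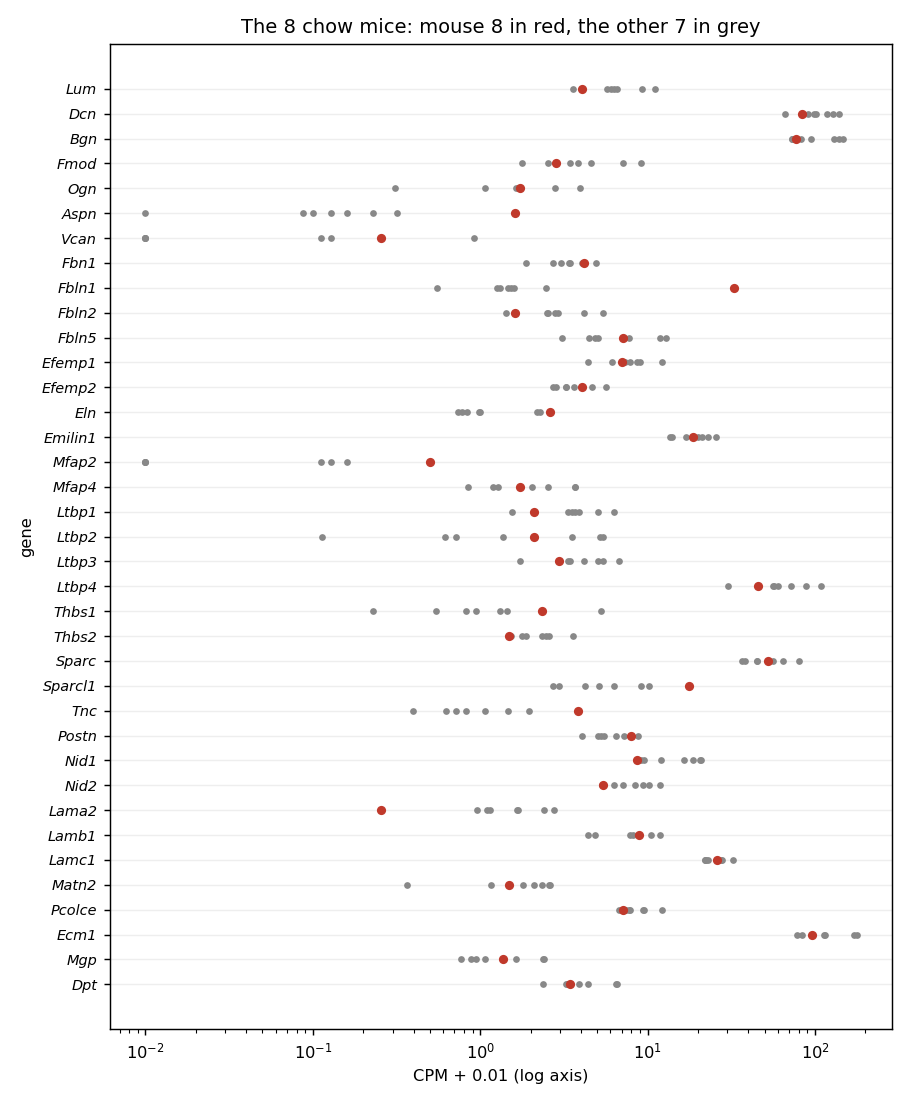
CPM plus 0.01 (log axis) of the 37 tested genes in the 8 chow-fed mice, with 1 point per mouse. Chow mouse 8, in red, lies far to the right of the other 7 for Fbln1, at 32.9 CPM against at most 2.46 CPM, and for Aspn, at 1.60 against at most 0.308 CPM, while for most other genes it lies among them.

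All 4 latent TGF-beta binding proteins rose: Ltbp2 by 2.70 ± 0.49, Ltbp3 by 2.35 ± 0.34, Ltbp1 by 2.31 ± 0.28 and Ltbp4 by 0.87 ± 0.20. Ltbp4, by far the most abundant of them per kilobase, thus had the smallest log2 fold change, and its ranges of 30.1 to 109 and 91.1 to 164 CPM met. The 6 tested matricellular genes all rose, with the groups apart in each. Tnc, an adhesion-modulating protein of wound matrix, went from 0.384 to 3.82 CPM (median 0.932) to 6.76 to 13.6 CPM (median 8.43), a change of 2.86 ± 0.35. Thbs2 and Thbs1 (thrombospondins, the latter an activator of latent TGF-beta) rose by 2.81 ± 0.35 and 2.09 ± 0.38, and Sparcl1 (hevin) by 2.18 ± 0.40. Sparc, a collagen-binding calcium protein, went from 36.8 to 80.0 CPM (median 48.5) to 149 to 268 CPM (median 248), a change of 2.10 ± 0.21. Postn, which promotes collagen cross-linking, had the smallest rise of the class at 1.57 ± 0.26, from 4.02 to 8.81 CPM (median 5.95) to 9.76 to 24 CPM (median 19.6).

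Basement membrane genes rose in 4 of 5 cases. Lama2, a laminin alpha chain, rose by 2.73 ± 0.38, Nid1 (nidogen, which links laminin to collagen IV) by 2.55 ± 0.27, Lamb1 by 1.75 ± 0.20 and Lamc1 by 0.93 ± 0.14. Nid2, the second nidogen, measured 5.31 to 11.8 CPM in chow-fed and 7.77 to 13.1 CPM in DIO-MASH mice and did not pass (0.30 ± 0.17, adjusted p = 0.14 by edgeR). On the level per kilobase, Nid1 and Nid2 had chow medians of 2.06 and 1.5, and medians of 13.2 and 1.86 CPM per kilobase in DIO-MASH. Of the other genes, Dpt rose by 3.21 ± 0.43, Mgp (matrix Gla protein, an inhibitor of calcification) by 2.01 ± 0.40, Matn2 (matrilin, a filament-forming adaptor) by 2.0 ± 0.29 and Pcolce (which speeds procollagen processing) by 1.64 ± 0.20. Ecm1, the most abundant per kilobase in healthy liver, did not pass (0.25 ± 0.14, adjusted p = 0.12 by edgeR), and its values of 77.8 to 178 and 116 to 186 CPM overlapped. It did pass without chow mouse 3 (0.35, adjusted p = 0.030) or chow mouse 6 (0.37, adjusted p = 0.021 by edgeR).

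Each mouse was given a score, the mean over the 37 genes of its standardised log2 CPM, as a description without a test. Chow-fed mice scored -1.93 to -0.82 (median -1.34) and vehicle-dosed DIO-MASH mice 0.38 to 1.37 (median 1.0). The low doses of zalfermin (median 0.51) and semaglutide (median 0.39) overlapped the vehicle group, with lowest mice at -0.63 and -1.41. High-dose semaglutide had a median of 0.10 and ran from -0.86 to 1.41, past the highest vehicle-dosed mouse. High-dose zalfermin scored -0.89 to 0.16 (median 0.04) and the combination -0.95 to 0.35 (median -0.28), so every mouse of these 2 groups lay below the lowest vehicle-dosed mouse.

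**Figure D2:**
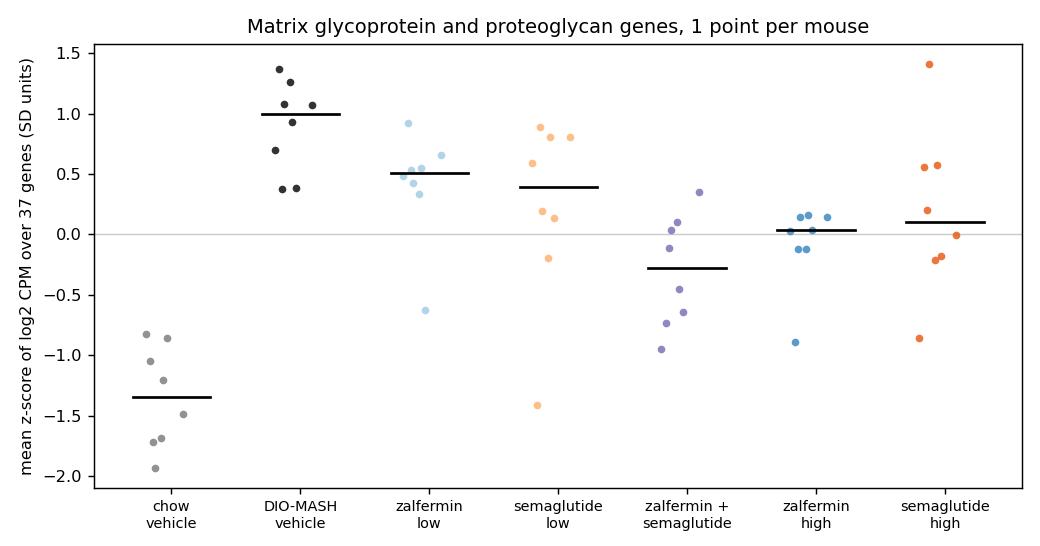
Score of each mouse (average of the 37 standardised log2 CPM values, in SD units), with 1 point per mouse and a line at the median of each group of 8. All chow-fed mice lie below -0.8, all vehicle-dosed DIO-MASH mice above 0.3, and all mice of the combination and of high-dose zalfermin lie below the vehicle-dosed mice.

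Within the 3 series of numbers that the labels use and that hold every group, the difference in mean score from the vehicle-dosed mice was -1.01, -1.20 and -1.43 for the combination and -0.65, -1.16 and -1.07 for high-dose zalfermin. It was below 0 in each series for the other drug groups too, from -0.34 to -0.59 for low-dose zalfermin, -0.39 to -1.04 for low-dose semaglutide and -0.23 to -1.04 for high-dose semaglutide. What the number series stand for is not given in the sources used here, and a series held only 2 to 4 mice of a drug group.

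Under the combination, 26 of the 37 genes were lower than in vehicle-dosed DIO-MASH mice and none was higher, where 10.9% of all genes tested were lower (edgeR). The median log2 fold change was -0.96, beside -0.03 for all genes. In 9 of the 26 (Fbn1, Eln, Sparc, Tnc, Postn, Ltbp1, Nid1, Lamb1 and Pcolce) every mouse of the combination lay below every vehicle-dosed mouse, which held for 1.89% of all genes. Under high-dose zalfermin 19 of the 37 were lower, with a median of -0.68 beside -0.02 for all genes, where 8.68% of all genes were lower. Here 9 genes also did not overlap (Fbn1, Eln, Sparc, Tnc, Postn, Nid1, Nid2, Lamb1 and Lamc1), against 2.47% of all genes. Under high-dose semaglutide 7 were lower (Fmod, Fbn1, Eln, Sparc, Postn, Mfap4 and Nid1), where 1% of all genes were lower, with a median of -0.50 beside -0.01 and every range overlapping. These comparisons share their 8 vehicle-dosed mice, so their counts are not independent of each other.

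**Figure D3:**
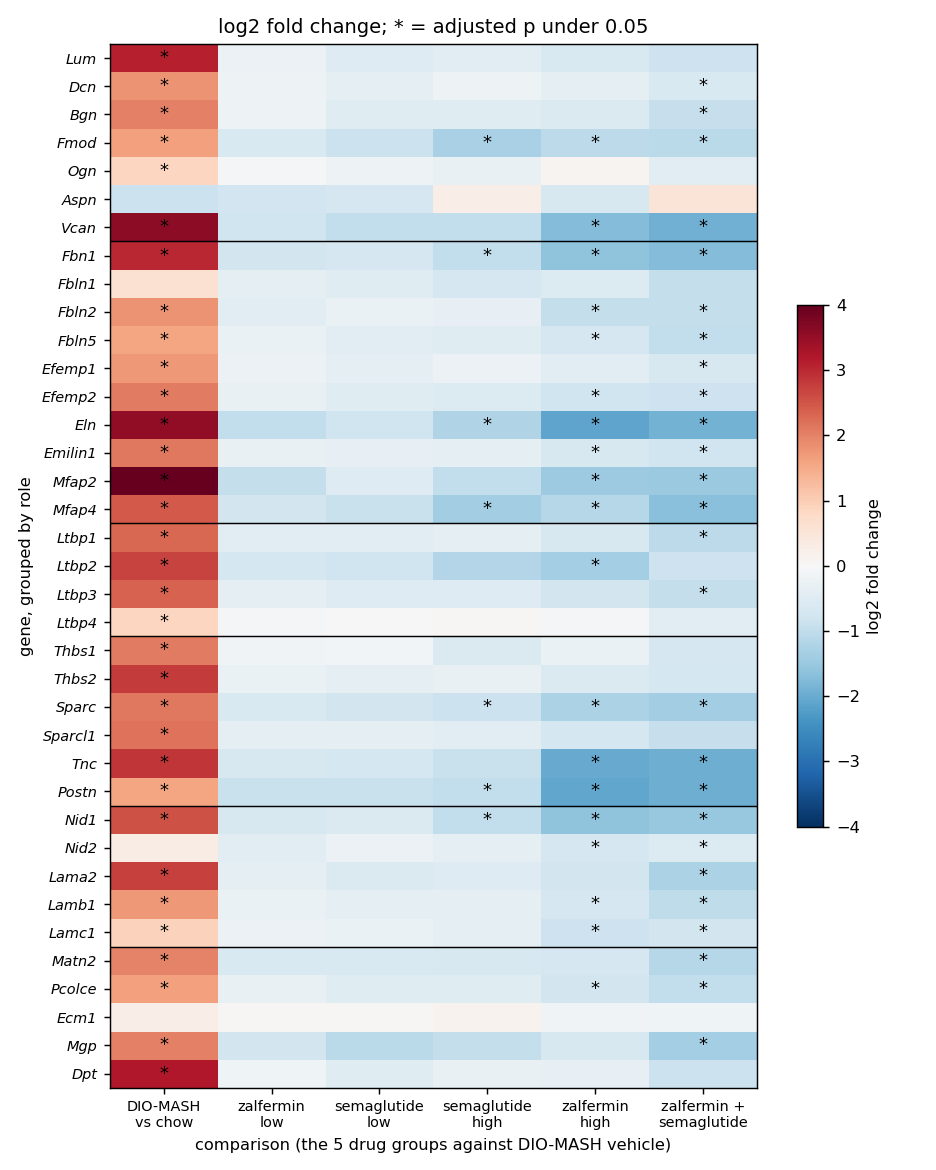
log2 fold change of the 37 tested genes (rows, grouped by role) in 6 comparisons (columns), on a colour scale from -4 (blue) to 4 (red), with an asterisk where the adjusted p is under 0.05. The first column, DIO-MASH against chow, has 33 marks, all red, and the last columns have 7 for high-dose semaglutide, 19 for high-dose zalfermin and 26 for the combination, all blue, while the 2 low-dose columns have none.

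The deepest falls under the combination were those of Tnc, Postn, Vcan, Eln and Fbn1. The fall of Vcan rests on few reads, with 1 to 24 in each combination mouse. Its level there was 0.145 to 1.56 CPM, which overlapped the 1.07 to 5.04 CPM of vehicle-dosed mice. Postn measured 9.76 to 24 CPM in vehicle-dosed mice, 1.82 to 7.02 CPM (median 4.36) under the combination and 2.68 to 8.75 CPM (median 3.55) under high-dose zalfermin, log2 fold changes of -1.95 ± 0.26 (adjusted p = 1.5e-07) and -2.08 ± 0.26 (adjusted p = 7.6e-08 by edgeR). All 16 mice of these groups lay below the vehicle-dosed mice, and both medians were below the chow median of 5.95 CPM. Tnc measured 0.931 to 5.21 CPM (median 1.94) under the combination and 1.35 to 3.52 CPM (median 2.16) under high-dose zalfermin, changes of -1.97 ± 0.32 and -2.03 ± 0.32. Sparc, at 54 to 120 CPM (median 83.4) and 53.3 to 111 CPM (median 99.995), changed by -1.39 ± 0.21 and -1.26 ± 0.21. Of Postn, Tnc, Vcan and Fbn1, whose promoters are printed above, 2 held TATAAA and 3 held GGGCGG, and a link to the falls was not tested. The remaining matricellular genes did not pass under either treatment: Thbs1 gave -0.68 and -0.26, Thbs2 gave -0.69 and -0.57, and Sparcl1 gave -0.91 and -0.71 for the combination and high-dose zalfermin.

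In the elastic fibre and microfibril class, genes fell in 9 of 10 cases under the combination and in 8 of 10 under high-dose zalfermin. Eln measured 1.77 to 6.89 CPM (median 3.38) under the combination and 2.43 to 4.67 CPM (median 3.54) under high-dose zalfermin, changes of -1.90 ± 0.35 (adjusted p = 7e-05) and -2.12 ± 0.36 (adjusted p = 1.8e-05 by edgeR). Fbn1 measured 5.32 to 13.1 CPM (median 7.47) and 7.90 to 11.1 CPM (median 9.18), changes of -1.74 ± 0.27 and -1.60 ± 0.27. Both genes were below all vehicle-dosed mice, yet their medians stayed above the highest chow mouse (2.58 CPM for Eln and 4.92 CPM for Fbn1). For Fbn1, 20.1% of the exon length overlaps Gm9913 on the opposite strand, and whether the counting used strand is not given in the sources used here. Smaller falls were those of Mfap4 (-1.66 and -1.13), Mfap2 (-1.48 and -1.46), Fbln5 (-0.98 and -0.66), Fbln2 (-0.96 and -0.95), Efemp2 (-0.82 and -0.80) and Emilin1 (-0.79 and -0.65) under the combination and high-dose zalfermin in turn. Efemp1 passed under the combination only (-0.65, against -0.45 under high-dose zalfermin), and Fbln1 passed under neither (-0.96 and -0.54).

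**Figure D4:**
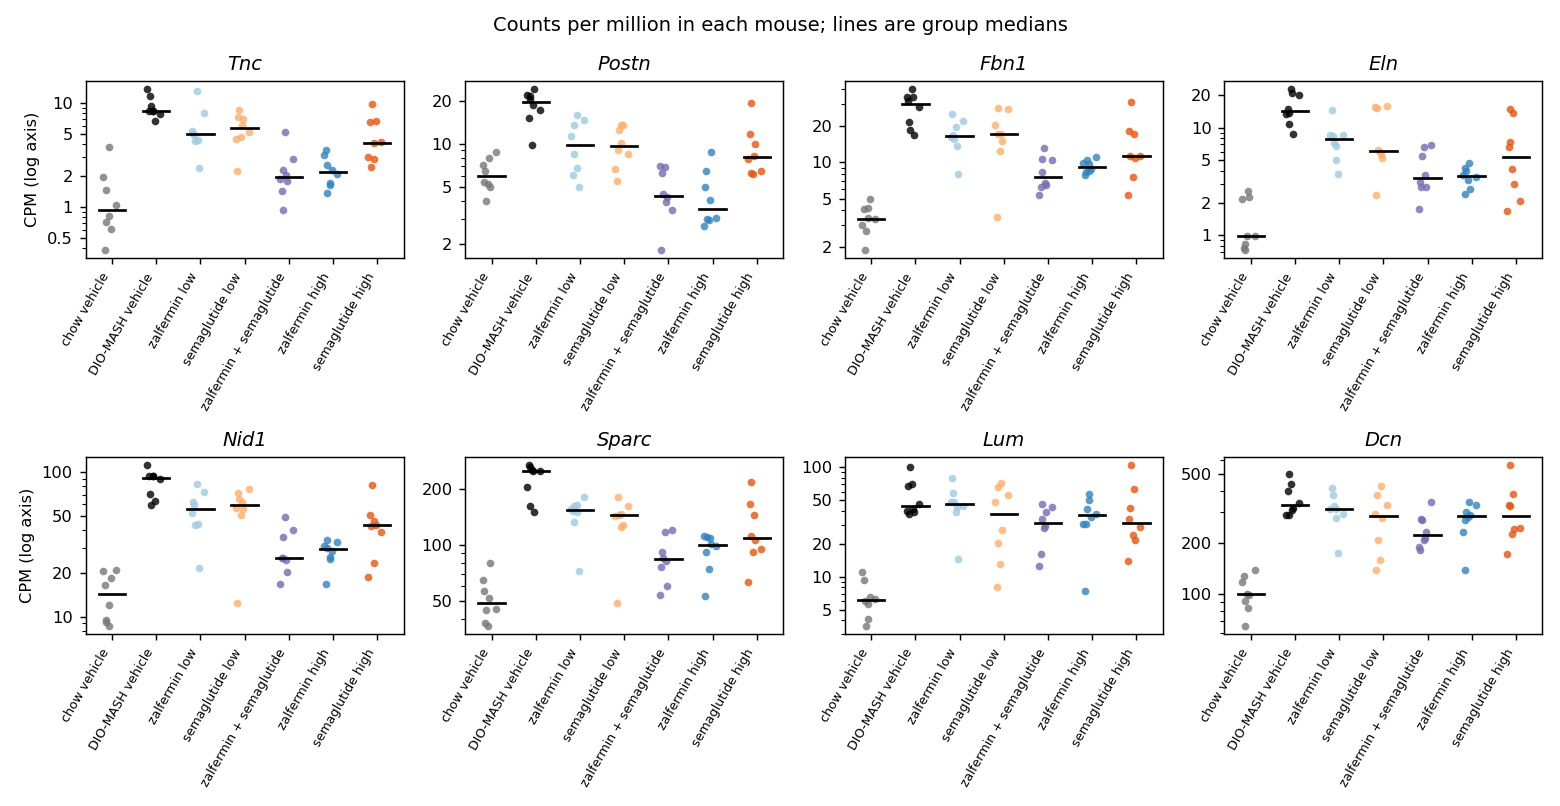
CPM (log axes) of 8 genes in each of the 56 mice, by group, with lines at the medians. Tnc, Postn, Fbn1, Eln, Nid1 and Sparc are lower in every mouse of the combination and high-dose zalfermin groups than in any vehicle-dosed mouse, whereas the ranges of Lum (12.6 to 46.7 CPM under the combination, 37.7 to 101 CPM under vehicle) and Dcn overlap.

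Basement membrane genes fell in 5 of 5 cases under the combination and in 4 of 5 under high-dose zalfermin. Nid1 measured 16.9 to 48.7 CPM (median 25.4) under the combination and 16.8 to 33.7 CPM (median 29.1) under high-dose zalfermin, against 59.1 to 113 CPM (median 91.8) in vehicle-dosed mice, changes of -1.51 ± 0.25 and -1.60 ± 0.26. Lamb1 (-1.01 and -0.66) and Lamc1 (-0.74 and -0.82), a laminin beta and a laminin gamma chain, fell in both groups. Lama2 fell under the combination (-1.26 ± 0.34) and did not pass under high-dose zalfermin (-0.73 ± 0.33, adjusted p = 0.12 by edgeR). Nid2, which had not passed the test of DIO-MASH against chow, was lower than in vehicle-dosed mice under the combination (-0.55 ± 0.17) and high-dose zalfermin (-0.68 ± 0.18). In the latter it measured 5.13 to 7.28 CPM, all below the vehicle range of 7.77 to 13.1 CPM, and 8.45% of its exon length overlaps Rtraf on the opposite strand.

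Among the small leucine-rich proteoglycans and versican, 4 of 7 genes were lower under the combination: Vcan (-1.92 ± 0.45), Fmod (-1.08 ± 0.37), Bgn (-0.91 ± 0.23) and Dcn (-0.60 ± 0.20). Lum measured 12.6 to 46.7 CPM (median 31.3) against a chow median of 6.14 CPM, and its change of -0.84 ± 0.36 did not pass (adjusted p = 0.086 by edgeR). Dcn, at 180 to 344 CPM (median 221), overlapped the vehicle range and stayed above every chow mouse. Under high-dose zalfermin Vcan (-1.74 ± 0.46) and Fmod (-1.05 ± 0.38) of this class were lower, while Bgn gave -0.59 ± 0.23, Lum -0.62 ± 0.36 and Dcn -0.40 ± 0.20, none of which passed. Ogn (-0.43 and 0.12) and Aspn (0.50 and -0.63) passed in neither group.

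Of the latent TGF-beta binding proteins, Ltbp1 (-1.05 ± 0.26) and Ltbp3 (-0.94 ± 0.31) were lower under the combination and Ltbp2 (-1.35 ± 0.45) under high-dose zalfermin. Of the Ltbp2 exon length, 9.34% overlaps D030025P21Rik on the opposite strand. Ltbp1 measured 4.82 to 11.8 CPM (median 9.24) under the combination, just below the lowest vehicle-dosed mouse at 11.9 CPM. Ltbp4 passed in neither group, at -0.42 and -0.07. Among the other genes, Mgp (-1.36 ± 0.38), Matn2 (-1.13 ± 0.27) and Pcolce (-0.99 ± 0.19) were lower under the combination, and Pcolce (-0.73 ± 0.19) also under high-dose zalfermin. Dpt, at 5.01 to 28.6 CPM (median 23.5) under the combination against 17.7 to 70.8 CPM (median 32.2) under vehicle, did not pass (-0.87 ± 0.37, adjusted p = 0.088 by edgeR). Ecm1 gave -0.19 and -0.13, passing in neither.

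Set against the chow-fed mice, the median of the combination group lay at or below the highest chow value for 16 of the 37 genes, or 14 when chow mouse 8 was left aside. Among these were Postn, Tnc, Vcan, Lamc1, Fbln2, Fbln5 and Mgp. The same count was 11 for high-dose zalfermin (9 without chow mouse 8), 10 for high-dose semaglutide (9), 7 for low-dose semaglutide (6) and 5 for low-dose zalfermin (4), beside 5 (4) for the vehicle-dosed mice themselves. Lum, Dcn, Bgn, Dpt, Eln, Fbn1 and Nid1 were among the genes whose median stayed above the chow range in every drug group. No test of a drug group against chow was made. The share of all genes within the chow range was not computed, and each count rests on the single highest chow value of a gene. The counts are therefore a description only.

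Single mice bore on the drug comparisons. Of the 26 calls under the combination, 21 were kept whichever 1 mouse was left out. The other 5 (Dcn, Fmod, Ltbp3, Mfap2 and Nid2) were lost without at least 1 of vehicle-dosed mice 4, 6, 7 and 8 and combination mice 1, 3 and 6, with adjusted p up to 0.081 (edgeR), and 22 calls remained without combination mouse 3. With the number series as a covariate, the Mfap2 call under the combination was lost (-1.23, adjusted p = 0.051 by edgeR). Of the 19 calls under high-dose zalfermin, 13 were kept throughout, and leaving out mouse 6 of that group, the lowest of its group for 25 of the 37 genes, ended 6 (Fmod, Fbln5, Emilin1, Ltbp2, Mfap2 and Mfap4). The Fmod call at this dose was lost when any 1 of 12 mice was left out, and the Fbln5 call when any 1 of 7 was.

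High-dose semaglutide was the least settled comparison. Mouse 7 of that group had the highest value of its group for 36 of the 37 genes and mouse 3 the lowest for 31. None of the 7 calls held whichever mouse was left out. Without mouse 7, 13 genes were lower, Tnc, Ltbp2, Lamc1, Matn2, Pcolce and Mgp being added. Without mouse 3 or mouse 4, however, none of the 37 was called, 1 was called without mouse 2, 4 without mouse 1 or without vehicle-dosed mouse 2, and 3 without vehicle-dosed mouse 4. Sparc had the smallest adjusted p of the 7 at 0.017 (-0.85 ± 0.20, edgeR), with 62.9 to 218 CPM (median 109) against 149 to 268 CPM (median 248). Postn measured 6.14 to 19.2 CPM (median 8.07) and changed by -0.97 ± 0.24, and Nid1 18.9 to 81.0 CPM (median 42.8), by -0.98 ± 0.25. The range of Nid1 met that of the vehicle-dosed mice through mouse 7 alone, that of Sparc through mice 6 and 7, and that of Postn through mice 1, 6 and 7.

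At the low doses, no member passed the test. For low-dose zalfermin, 0 of 37 were lower (edgeR), where 0.0496% of all genes were lower, but 36 of the 37 log2 fold changes were below 0, 11 had an unadjusted p under 0.05, and the median was -0.39 beside -0.02 for all genes. DESeq2 called 1 gene, Sparc. Low-dose semaglutide gave 0 of 37 as well, where 0% of all genes were lower, with 36 of 37 below 0, 16 at an unadjusted p under 0.05, and a median of -0.49 beside -0.0031 for all genes, and DESeq2 again called Sparc alone. The share of all genes with an unadjusted p under 0.05 was not computed, so the counts of 11 and 16 have no scale beside them. With 1 mouse left out, the median ran from -0.26 to -0.50 for low-dose zalfermin and from -0.36 to -0.58 for low-dose semaglutide. The smallest falls, -0.26 and -0.36, came without low-dose zalfermin mouse 1 and low-dose semaglutide mouse 6. These mice were the lowest of their groups for 33 and 34 of the 37 genes. Postn came nearest under low-dose zalfermin, with 5.02 to 15.9 CPM (median 9.89) and a log2 fold change of -0.88 ± 0.24 (adjusted p = 0.079 by edgeR), and it passed without mouse 4 of that group (adjusted p = 0.041 by edgeR). Sparc under low-dose semaglutide, at 49 to 180 CPM (median 144), gave -0.74 ± 0.20 (adjusted p = 0.27 by edgeR). Neither result shows that a low dose left these genes as they were.

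The comparison of the combination with each low dose asks whether giving both drugs differed from giving 1. Against low-dose zalfermin, 9 genes were lower (Postn, Tnc, Lamb1, Fbn1, Sparc, Pcolce, Lamc1, Nid1 and Fbln5), where 3.35% of all genes were lower, with a median of -0.56 beside -0.02 for all genes. Tnc gave -1.31 ± 0.32 (adjusted p = 0.0068 by edgeR), Postn -1.07 ± 0.26 and Fbn1 -1.01 ± 0.27. In each the ranges overlapped, Tnc running from 2.38 to 13 CPM (median 5.03) under low-dose zalfermin. Against low-dose semaglutide, 6 were lower (Postn, Fbn1, Tnc, Nid1, Lamc1 and Lamb1), where 2.28% of all genes were lower, with a median of -0.49 beside -0.02. Tnc gave -1.27 ± 0.32 (adjusted p = 0.012 by edgeR), Fbn1 -1.06 ± 0.27 and Postn -1.04 ± 0.26.

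**Figure D5:**
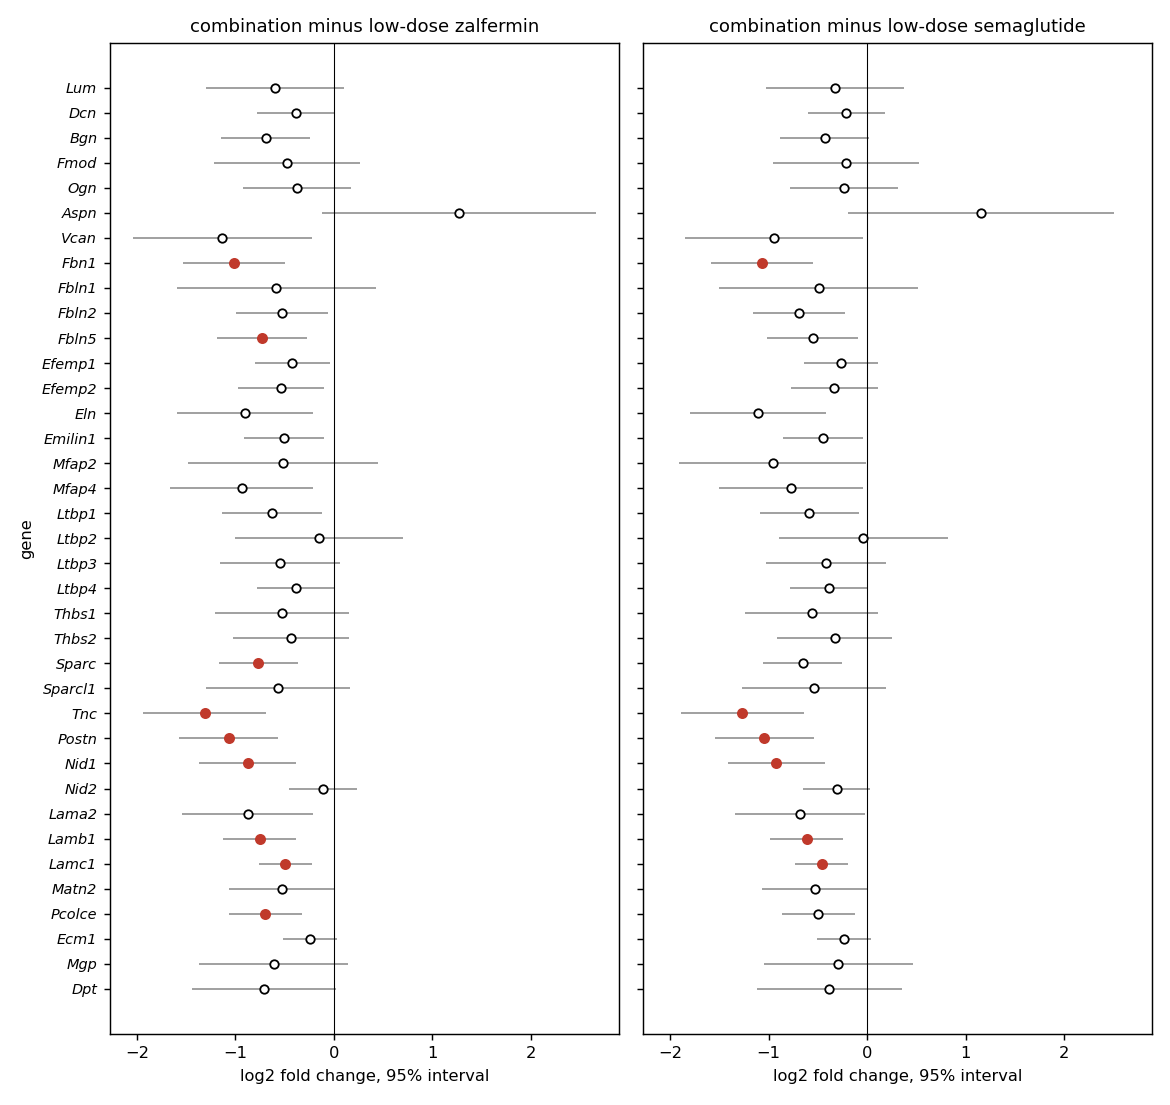
log2 fold change of the combination against low-dose zalfermin (left) and low-dose semaglutide (right) for the 37 tested genes, with 95% intervals, and red points where the adjusted p is under 0.05. Nearly all points lie left of 0, with 9 red on the left and 6 on the right, led by Tnc at -1.31 and -1.27.

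The second count moved with single mice. Without low-dose semaglutide mouse 6, the lowest of its group for 34 of the 37 genes, 11 were lower than in that group, and 12 when chow mouse 8 was left out as well. It fell to 3 without low-dose semaglutide mouse 2 or 5 or combination mouse 1 or 3, and to 2 when only these 2 groups were fitted. Lamb1 and Lamc1 were each lost without any 1 of 12 mice and with no filter on low counts, and Nid1 without any 1 of 4 mice. Lamb1 was also lost with DESeq2 size factors. Postn and Tnc were kept whichever 1 mouse was left out, and Fbn1 was too, though it was lost in the fit of these 2 groups alone. In the comparison with low-dose zalfermin, 6 to 10 genes were called when 1 mouse was left out. Fbln5 was lost without any 1 of 12 mice, with DESeq2 size factors, with no filter on low counts and with the number series as a covariate (adjusted p = 0.060 by edgeR), Nid1 without any 1 of 4 mice and Lamc1 without any 1 of 2.

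Between the combination and high-dose zalfermin, 0 of 37 genes differed (edgeR, and 0 also by DESeq2), and none of them reached an unadjusted p under 0.05 by edgeR. Of all 14105 genes tested, 46 were higher and 25 (0.177%) lower under the combination. The log2 differences ran from -0.72 (Mgp) to 1.13 (Aspn), with a median of -0.19 beside -0.01 for all genes. The 95% interval of Postn ran from -0.40 to 0.66 and that of Tnc from -0.60 to 0.72, so these data do not show that the groups were alike. Against high-dose semaglutide, the combination was lower in 1 gene, Postn (-0.97 ± 0.26, adjusted p = 0.030 by edgeR), where 1.03% of all genes were lower. Of the 37, 16 had an unadjusted p under 0.05, a count for which no share of all genes was computed. Lamb1 (-0.66 ± 0.19, adjusted p = 0.050) and Tnc (-1.07 ± 0.32, adjusted p = 0.064 by edgeR) came next and were called by DESeq2. High-dose zalfermin against high-dose semaglutide also gave Postn alone (-1.10 ± 0.26, adjusted p = 0.034 by edgeR), where 0.312% of all genes were lower. Without high-dose semaglutide mouse 7, at 19.2 CPM the highest Postn value of its group, neither call held (-0.74 with adjusted p = 0.16, and -0.87 with adjusted p = 0.15, edgeR), and neither was called when only the groups compared were fitted. The first was also lost without semaglutide mouse 6 or combination mouse 1, 2, 6 or 7, and the second without semaglutide mouse 1, 6 or 8 or zalfermin mouse 2, 3, 4, 6, 7 or 8. Leaving out semaglutide mouse 1, 3, 4 or 5, low-dose semaglutide mouse 4, 5, 6 or 8 or combination mouse 4 raised the first count to 2 or 3, by Lamb1 or Tnc.

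Whether the combination differed from the sum of the 2 low doses was tested as an interaction on the log2 scale, which takes the combination to be of those doses. It gave 0 of 37 genes, where 0.0142% of all genes were lower and none was higher, and no member had an unadjusted p under 0.05 (edgeR, and 0 also by DESeq2). The 37 values had a median of -0.16 beside -0.01 for all genes. Their intervals were wide, that of Tnc (-0.61 ± 0.43) running from -1.46 to 0.24, so that departures of more than 1 on the log2 scale in either direction lay within some of them.

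Other genes of the matrix and of its control were counted from lists chosen with earlier results of these data known, and the genes named were taken from the largest called changes among those with a mean of at least 1 CPM. Of all genes tested, 28.9% were higher and 26.5% lower in DIO-MASH, 10% higher and 10.9% lower under the combination, and 8.54% higher and 8.68% lower under high-dose zalfermin. Of 57 tested genes for other matrix glycoproteins and proteoglycans, 38 were higher and 8 lower in DIO-MASH, 3 were higher and 16 lower under the combination, and 4 were higher and 6 lower under high-dose zalfermin. The median log2 fold change of these 57 was 1.06 in DIO-MASH and -0.51 under the combination, beside 0.01 and -0.03 for all genes. The largest rises in DIO-MASH were Spp1 (osteopontin, 3.40) and Svep1 (a large adhesion protein, 3.34) and the largest falls Fras1 (-1.31) and Vtn (vitronectin, -1.03). Under the combination the largest falls were Frem1 (-1.45) and Spp1 (-1.37), while Vtn (0.70) and Fn1 (fibronectin, 0.60), plasma proteins that hepatocytes make, rose. Of 6 tested fibrillar collagens, 5 were higher in DIO-MASH, led by Col1a1 (4.44) and Col3a1 (4.01), and 6 of 6 were lower under the combination and under high-dose zalfermin, with medians of -1.85 and -1.76 beside the -0.96 and -0.68 of the 37 genes. Under high-dose semaglutide 4 of the 6 collagens were lower and none of the 57 other matrix genes was called, where 1% of all genes were lower.

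Of 20 TGF-beta ligands, receptors and Smads, 14 were higher and 2 lower in DIO-MASH, among them the ligand Tgfb2 (2.81), with Smad4 (-0.48) and Smad2 (-0.26) lower. Under the combination 3 of the 20 were lower, among them Tgfbr2 (the type II receptor, -0.88), and 1 was higher, Smad4 (0.32), and under high-dose zalfermin 2 were lower, among them Tgfbr2 (-0.67). These drug counts lie near or below the shares of all genes, and the median of the 20 was -0.21 under the combination. Of 26 matrix receptors, 14 were higher and 4 lower in DIO-MASH, among them Itga8 (an integrin of stellate cells, 3.29) and Cd36 (2.40) higher and the syndecans Sdc2 (-1.04) and Sdc4 (-0.93) lower. Under the combination 3 rose, among them Sdc2 (0.73) and Sdc4 (0.62), and 5 fell, among them Itga8 (-1.04) and Ddr2 (a collagen receptor, -0.60). Under high-dose zalfermin 4 rose and 3 fell. No gene of the 20 or of the 26 was called under high-dose semaglutide. The median of the 26 was 0.61 in DIO-MASH and -0.20 under the combination.

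Markers of the cells that make this matrix were summed in each group. The 9 stellate cell markers summed to 94.1 to 167 CPM (median 138) in chow-fed mice, 278 to 390 CPM (median 349) in vehicle-dosed mice, 263 to 362 CPM under low-dose zalfermin, 180 to 362 CPM under low-dose semaglutide, 169 to 275 CPM (median 237) under the combination, 174 to 314 CPM (median 254) under high-dose zalfermin and 226 to 499 CPM under high-dose semaglutide. Of these 9, 7 were higher in DIO-MASH, 5 lower under the combination and 1 lower under high-dose zalfermin. The 6 myofibroblast markers, 1 of them also among the fibrillar collagens, summed to 18.5 to 109 CPM (median 33.3) in chow-fed mice, 167 to 414 CPM (median 355) under vehicle, 72.2 to 288 CPM and 37.5 to 269 CPM under the low doses of zalfermin and semaglutide, 37.6 to 168 CPM (median 87.7) under the combination, 42.3 to 122 CPM (median 110) under high-dose zalfermin and 56.5 to 318 CPM under high-dose semaglutide. For the myofibroblast markers, the 109 CPM was that of chow mouse 8, and the other 7 chow mice ran from 18.5 to 48.2 CPM. The 6 portal fibroblast markers had medians of 6.76 CPM in chow-fed, 28.3 CPM in vehicle-dosed and 12.3 CPM in combination mice. Of these 6, 4 were higher in DIO-MASH and 1 was lower under the combination and under high-dose zalfermin, and of the 6 myofibroblast markers 5 were higher in DIO-MASH, 4 lower under the combination, 3 under high-dose zalfermin and 2 under high-dose semaglutide. None of these markers was at 0 in all mice of a group, and their part in the results above was not tested.

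The other marker lists were counted in the same way. Of 6 hepatocyte markers, 6 were lower in DIO-MASH, and 4 were higher under the combination and 5 under high-dose zalfermin. All 5 markers of the macrophages of lipid-laden liver, Spp1 among them, were higher in DIO-MASH, and 2 fell under the combination and 3 under high-dose zalfermin. Of 5 Kupffer cell markers 1 was higher and 2 lower in DIO-MASH and 3 were higher under the combination. Of 5 sinusoidal endothelial markers, 2 were higher and 1 lower in DIO-MASH and 1 was lower under the combination. Smooth muscle markers (1 higher and 3 lower of 5 in DIO-MASH), cholangiocyte markers (2 higher of 5) and mesothelial markers (1 higher of 5) had no call under any drug. Chow mouse 8, with the high smooth muscle and cholangiocyte sums given above, is among the controls of these counts, which were not made without it. By group median, smooth muscle sums were 15.7 CPM in chow-fed and 19.8 CPM in vehicle-dosed mice. The cholangiocyte medians were 12.7 and 51.6 CPM. Of 4 pancreas markers 1 was testable, and it was lower in DIO-MASH and under the combination, and the 4 adipocyte markers summed to at most 1.14 CPM in any mouse, too few reads to test. Their part in the results was not tested either.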

How the data were processed

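Livers of 56 mice were sequenced as stranded mRNA libraries. The authors deposited 1 table of whole-number counts per gene, with no normalisation, for all mice. The labels list Trim Galore 0.6.4, Salmon 1.9.0 and build GRCm38, whereas the methods of the study name another aligner, so the program behind the counts and its use of strand are not given in the sources used here. Groups came from the labels, and the members and all lists were chosen with earlier results of these data known.

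Counts were fitted with edgeR 4.0.16 (R 4.3.3; quasi-likelihood F test, two-sided, TMM scaling, 1 fit of 7 groups), keeping 14105 genes with at least 5 reads in at least 3 mice, and p-values were adjusted by Benjamini-Hochberg over all of them with a threshold of 0.05. The SE of a log2 fold change is its size divided by the square root of F, and 95% intervals follow from it. CPM used TMM library sizes, and scores used log2 CPM with a prior count of 2. Named genes were all members and, from other lists, at most the 2 largest called rises and falls with a mean of at least 1 CPM. The procedure was tested on simulated data. Alternatives were DESeq2 1.42.0, its size factors in edgeR, other filters, fits of only the groups compared, number series as a covariate and leaving out single mice. Depth ran from 5228187 to 20885786 reads, which limits genes near 1 CPM most. No 2 mice of a group agreed within sampling noise. Mice are separate animals. A gene that this rule would name is not reported here.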

Additional observations from a re-analysis of the deposited data

Results flagged for a closer look

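In a group of 8, a mouse was marked where the gap between it and its nearest neighbour on the log2 CPM scale exceeded, as a share of the range of the group, the 95% critical value of Dixon's test. Of 266 groups tested (37 genes and the score in 7 groups), 45 were marked, where chance marks about 1 in 20 groups. Genes of 1 mouse are not independent, and most marks fell on 3 mice, each the lowest of its group.

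Low-dose zalfermin mouse 1 was marked 12 times, with CPM of 14.5 for Lum, 174 for Dcn, 187 for Bgn, 1.9 for Fmod, 9.37 for Fbln5, 41.1 for Emilin1, 72.4 for Sparc, 0.136 for Mfap2, 2.65 for Lama2, 25.3 for Lamc1 and 11.8 for Pcolce, and with a score of -0.63. Low-dose semaglutide mouse 6 was marked 12 times, with CPM of 100.4 for Bgn, 1.06 for Fmod, 1.17 for Ogn, 0.117 for Vcan, 3.52 for Fbn1, 21 for Emilin1, 49 for Sparc, 0.469 for Ltbp2, 12.3 for Nid1, 19.4 for Lamc1 and 7.74 for Pcolce, and with a score of -1.41. Its 6 myofibroblast markers summed to 37.5 CPM against 152 to 269 CPM in the other 7 mice of its group, and its stellate cell markers to 180 CPM against 264 to 362 CPM. The part of these markers in its low values was not tested.

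High-dose zalfermin mouse 6 was marked 14 times, with CPM of 7.41 for Lum, 139 for Dcn, 116 for Bgn, 4.98 for Fbln5, 8.38 for Efemp1, 26.5 for Emilin1, 2.19 for Thbs2, 4.86 for Sparcl1, 5.10 for Ltbp1, 16.8 for Nid1, 1.46 for Lama2, 9.11 for Lamb1 and 8.38 for Dpt, and with a score of -0.89. Chow mouse 8 was the highest of its group for Fbln1 at 32.9 CPM, Aspn at 1.60 CPM and Mfap2 at 0.492 CPM. Single marks fell on chow mouse 7 for Matn2 (0.355 CPM), vehicle-dosed mouse 7 for Lamc1 (33.7 CPM), low-dose semaglutide mouse 3 for Ecm1 (109 CPM) and combination mouse 3 for Dpt (5.01 CPM), each the lowest of its group.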

How the results depend on the processing

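No alternative turned the direction of a called gene. Of the values of single called genes under the alternatives, with the highest adjusted p over single mice left out as 1 of them, 671 stayed on the same side of the threshold and 43 did not, and the medians of the 37 genes kept their sign in all 36 cases computed. Leaving out 1 mouse gave 33 to 34 called genes for DIO-MASH against chow, 22 to 28 for the combination, 13 to 21 for high-dose zalfermin, 0 to 13 for high-dose semaglutide, 0 to 1 for low-dose zalfermin, 6 to 10 and 3 to 11 for the combination against low-dose zalfermin and low-dose semaglutide, 0 to 3 for it against high-dose semaglutide and 0 to 1 for high-dose zalfermin against high-dose semaglutide. DESeq2 gave 1 called gene for each low dose, 3 for the combination against high-dose semaglutide and 2 for the high doses against each other. Fits of only the groups compared gave 1 for low-dose zalfermin, 2 for the combination against low-dose semaglutide and 0 for both comparisons with high-dose semaglutide. A filter of 10 reads in 8 mice gave 2 for the combination against high-dose semaglutide. Leaving out chow mouse 8 and low-dose semaglutide mouse 6 together, an alternative chosen after seeing the data, gave 1 for low-dose zalfermin, 12 for the combination against low-dose semaglutide, 3 for it against high-dose semaglutide and 2 for the high doses against each other. The cause of these shifts was not tested. No paired analysis was possible because the labels give each mouse a number of its own and no replicate number shared between groups. The series into which those numbers fall could be fitted as a covariate, which gave 34 called genes for DIO-MASH against chow, 25 for the combination, 21 for high-dose zalfermin, 7 for high-dose semaglutide, and 8 and 7 for the combination against low-dose zalfermin and low-dose semaglutide. It ended the calls of Mfap2 under the combination and of Fbln5 against low-dose zalfermin. Depth limits Vcan, Mfap2 and Aspn most, whose chow medians rest on few reads.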
